A study of Mus musculus with 29 samples.

Results

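The sites bound by Pou4f3 were compared between a line that expressed Pou4f3 and Atoh1 (iP+A) and a line that expressed Gfi1 as well (iGPA), to ask where Pou4f3 was found once Gfi1 was added. The members were the 17082 Pou4f3 peaks of the iP+A list and the 18751 Pou4f3 peaks of the iGPA list. A window of 300 bp was centred on each summit, and windows with 1 bp or more in common became 1 site, which gave 26640 sites. Of these, 9083 were shared, 7920 had a peak in iP+A only and 9637 had a peak in iGPA only. The series holds 29 libraries of 6 lines, with 17 ChIP and 12 input libraries, and 9 peak lists with 175162 peaks in all. All lines were mouse embryonic stem cells of the A2loxCre parent with a doxycycline-inducible cassette, grown as embryoid bodies, given doxycycline (2 µg/ml) for 48 h and harvested at day 6. The iP+A cassette held MYC-tagged Pou4f3 and FLAG-tagged Atoh1, and the iGPA cassette held Gfi1, MYC-tagged Pou4f3 and FLAG-tagged Atoh1. Pou4f3 was precipitated through MYC with 2 libraries a line, Atoh1 through FLAG with 2 libraries a line, and Gfi1 in iGPA with an antibody to the protein and 1 library. The embryoid bodies are a mixture of cells, and the factors came from the cassette and not only from the endogenous genes.

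Pou4f3 is a transcription factor with a POU-specific domain and a homeodomain that binds AT-rich DNA, and it is needed for the survival of inner ear hair cells. Atoh1 is a basic helix-loop-helix factor that starts hair cell development and binds E-boxes (CANNTG). Gfi1 is a zinc finger repressor that binds DNA with an AATC core and is also needed for hair cell survival.

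Replicates had been merged before peak calling, so no site has a value per replicate. The intervals below are 95% intervals that cover counting error only, and sites are not replicates. Differences between lines cannot be told apart from differences between these pairs of libraries. A site of 1 list had no peak within the joined window in the other list, which does not show that Pou4f3 was absent there.

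The sequences of 9 sites, each among the strongest of its class or among the strongest with a Pou4f pattern, are printed to show the letters around the summit. Each is 80 bp of the plus strand of mm9. Capitals mark the match to the Pou4f pattern (ATAATTAAT with at most 1 mismatch, either strand) nearest to the summit, or, where there was none, a match to ATTATTNAT (either strand), and a sequence without capitals held neither.
Shared, between genes, nearest start Gm13203, chr4:148116921-148117000: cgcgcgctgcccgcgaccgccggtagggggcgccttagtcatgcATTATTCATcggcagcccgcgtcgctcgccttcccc
Shared, intron of Osbpl7, chr11:96912724-96912803: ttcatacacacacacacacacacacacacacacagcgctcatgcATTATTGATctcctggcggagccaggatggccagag
Shared, intron of Megf11, chr9:64502648-64502727: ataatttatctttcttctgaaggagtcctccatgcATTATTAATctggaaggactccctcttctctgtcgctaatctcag
iGPA only, intron of Tmprss7, chr16:45693110-45693189: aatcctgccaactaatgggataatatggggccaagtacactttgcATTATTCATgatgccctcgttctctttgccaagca
iGPA only, between genes, nearest start Nhlrc1, chr13:47093597-47093676: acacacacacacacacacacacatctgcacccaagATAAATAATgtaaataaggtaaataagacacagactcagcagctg
iGPA only, intron of AY512915, chr6:95262904-95262983: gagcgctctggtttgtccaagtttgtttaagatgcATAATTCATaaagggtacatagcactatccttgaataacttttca
iP+A only, between genes, nearest start Sec16b, chr1:159529575-159529654: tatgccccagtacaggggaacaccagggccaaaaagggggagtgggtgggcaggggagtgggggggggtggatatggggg
iP+A only, intron of Tmprss7, chr16:45692736-45692815: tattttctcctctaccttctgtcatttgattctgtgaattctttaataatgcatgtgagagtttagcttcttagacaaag
iP+A only, between genes, nearest start Gm17350, chr8:130526436-130526515: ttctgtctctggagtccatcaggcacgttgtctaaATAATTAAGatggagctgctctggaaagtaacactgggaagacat

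Shared sites were stronger than the sites of 1 list. Fold enrichment divides the fragments counted at a summit by those of its local background. Its median at shared sites was 3.51 in iP+A and 5.39 in iGPA, and 8193 of 9083 shared sites (90.2%) had the higher fold in iGPA. The median was 2.94 at iP+A-only sites and 3.64 at iGPA-only sites. The usual background differed between the lists, at 7.83 fragments in iP+A and 5.87 in iGPA, so a difference in fold between the lists cannot be told apart from the difference in background. The weakest kept peak had a −log10 p of 4.02 in iP+A and 4.11 in iGPA. The shared sites were 53.4% of the iP+A sites (52.7% to 54.2%) and 48.5% of the iGPA sites (47.8% to 49.2%). With a −log10 p of at least 10 in both lists these became 70.7% and 37.1%.

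Ranked by the lower of the 2 folds, the first shared site lay at chr4:148116805-148117110, outside genes, with a fold of 42.3 in iP+A and 107 in iGPA. The next lay in an intron of Osbpl7 at chr11:96912614-96912915, at −18 bp from the start of Gm11574, with 33.2 and 97.5. The third lay in a noncoding exon of Fcho1, which acts in clathrin-mediated endocytosis, at chr8:74233696-74234007, with 19.4 and 54.5. Sall4, a zinc finger factor of pluripotent cells, held a shared site 39 bp from its start with 18.3 and 32.2. These 4 sites also had Pou4f3 peaks in iPou4f3 and in iG+P.

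The strongest sites of 1 list were in part neighbours. In an intron of Tmprss7, a membrane serine protease, the iP+A peak at chr16:45692626-45692925 had a fold of 9.62. The iGPA peak at chr16:45693000-45693299, in the same intron, had a fold of 18.5. A pair of summits under 1 kb apart thus gave 1 site in each class. They lay 995 and 621 bp from the start of Tmprss7, so both sites count as promoter sites below. A summit of the other list lay within 1 kb of 9.47% of the iP+A-only sites and 6.19% of the iGPA-only sites. The strongest iP+A-only site, at chr18:56463014-56463313 with a fold of 16.5, had peaks in all 7 other lists and 1 further copy in the genome.

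iP+A-only sites were more often in duplicated sequence. A site was said to have a copy when at least 240 of the 300 bp around its summit aligned elsewhere in mm9 with at least 90% identity. Copies were found for 3182 iP+A-only sites (40.2%, 39.1% to 41.3%), 935 iGPA-only sites (9.70%, 9.12% to 10.3%) and 1024 shared sites (11.3%, 10.6% to 11.9%), against 19.3% of all joined sites and 14.1% of 25556 windows placed every 100 kb. The difference, iGPA-only minus iP+A-only, was −30.5 percentage points (−31.7 to −29.2), with the same sign on 20 of 20 chromosomes (Y left out). Differences between these classes are given in this direction throughout. Among iP+A-only sites the share with a copy went from 29.5% below a −log10 p of 6 to 76.6% at 20 or more.

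These sites lay in clusters. Chromosome 14 held 1019 iP+A-only and 576 iGPA-only sites, and 840 of the 1019 had a copy. Without the sites that had copies it held 179 and 410. Of the 10 megabases with the most iP+A-only sites, 6 lay between 3 and 9 Mb of chromosome 14, and the densest, 146 to 147 Mb of chromosome 4, held 205 iP+A-only sites, of which 194 had a copy. Among single-copy sites the iP+A-only share was between 11.6% and 27.8% on each of the 20 chromosomes that had any.

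**Figure D1:**
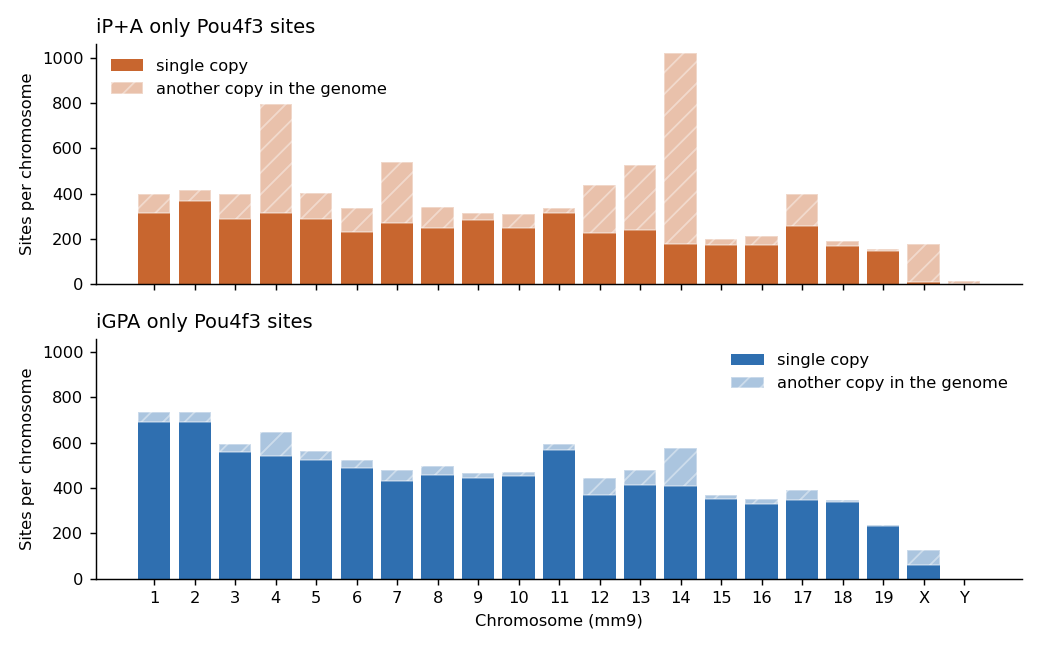
Number of Pou4f3 sites per chromosome (vertical axis) found in iP+A only (top) and in iGPA only (bottom). Solid bars are single-copy sites and hatched bars are sites with another copy in the genome. Chromosome 14 reaches 1019 iP+A-only sites, of which 840 have a copy.

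iP+A-only sites were also more often at promoters. A start of an annotated transcript lay within 1 kb of 29.5% of the iP+A-only sites (28.5% to 30.5%), 1255 of the 9637 iGPA-only sites (12.4% to 13.7%) and 13.3% of the shared sites (12.6% to 14.0%), against 18% of all joined sites and 4.26% of the genome windows. The difference was −16.4 points (−17.6 to −15.2), with the same sign on 19 of 20 chromosomes. The difference between shared and iGPA-only sites was 0.255 points (−0.713 to 1.22), an interval that includes 0. Among single-copy sites alone, promoters made up 44.0% of the iP+A-only and 13.6% of the iGPA-only sites. Introns, outside promoters and exons, held 27.4% of the iP+A-only, 40.3% of the iGPA-only and 41.0% of the shared sites. The median distance to a start was 7444 bp for iP+A-only, 17817 bp for iGPA-only and 17000 bp for shared sites.

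**Figure D2:**
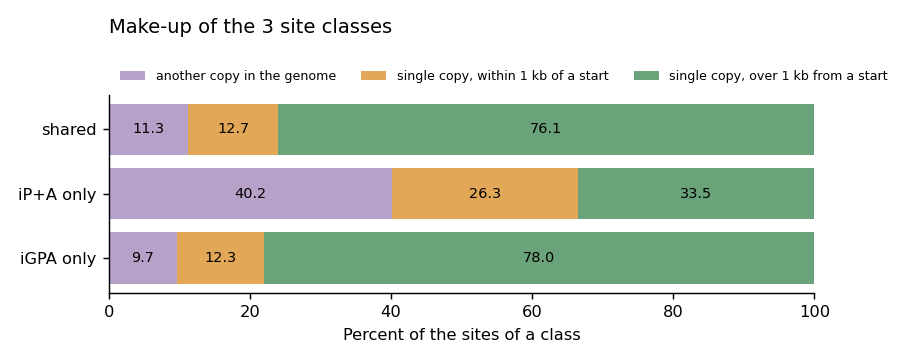
Percent of the sites of each class (horizontal axis) with another copy in the genome, single-copy and within 1 kb of a start, or single-copy and farther away. Single-copy sites far from starts make up 33.5% of the iP+A-only, 78.0% of the iGPA-only and 76.1% of the shared sites.

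GC content was higher at iP+A-only sites. The mean over the 250 bp at the summit was 48.9% for iP+A-only, 44.2% for iGPA-only and 44.3% for shared sites, with 41.8% in the genome windows. The difference was −4.71 points (−5.10 to −4.32). It was −10.01 points (−10.5 to −9.50) among single-copy sites and turned to 2.00 points (1.38 to 2.61) among sites with a copy. Without the sites within 1 kb of a start it was −0.0111 points (−0.289 to 0.267), which includes 0, and among single-copy sites over 1 kb from a start −1.88 points (−2.29 to −1.46). The GC box GGGCGG, a motif of promoters, was found in 19.2% of the iP+A-only, 8.43% of the iGPA-only and 8.55% of the shared sites, against 11.7% of all joined sites.

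The Pou4f pattern was found in 56.8% of the shared sites (55.8% to 57.8%), 52.5% of the iGPA-only sites (51.5% to 53.5%) and 21.0% of the iP+A-only sites (20.1% to 21.9%), within 250 bp at the summit. It was in 44.6% of all joined sites, in 11.5% of the genome windows and in 10.5% to 11.1% of windows 1000 bp to the side of the 3 classes. The iGPA-only share exceeded the iP+A-only share by 31.5 points (30.1 to 32.8), on 20 of 20 chromosomes. The shared sites exceeded the iGPA-only sites by 4.32 points (2.90 to 5.75).

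The difference remained in sign where copies and promoters were left out. Among single-copy sites over 1 kb from a start, the pattern was found in 66.2% of the shared, 62.1% of the iGPA-only and 44.4% of the iP+A-only sites, and the iGPA-only share was higher than the iP+A-only share by 17.7 points (15.5 to 19.9). Among single-copy sites within 1 kb of a start it was found in 31.3%, 17.4% and 3.55%. Among sites with a copy it was found in 21.9%, 19.8% and 12.9%.

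The pattern lay near the summit. The matched pattern nearest to the summit was within 25 bp in 68.7% of the shared, 59.4% of the iGPA-only and 41.0% of the iP+A-only sites that had one. In the 20 bp just after the summit 19.04% of the shared, 14.3% of the iGPA-only and 4.17% of the iP+A-only sites held a match. At 490 bp the 3 values were 0.958%, 0.975% and 0.909%.

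**Figure D3:**
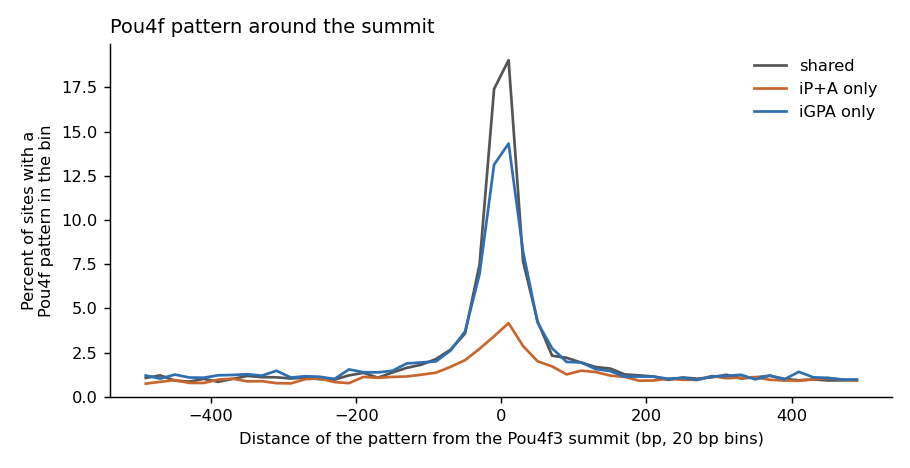
Percent of sites with a Pou4f pattern (vertical axis) in bins of 20 bp by distance from the Pou4f3 summit (horizontal axis), for shared, iP+A-only and iGPA-only sites. The peak at the summit reaches 19.04% for shared, 14.3% for iGPA-only and 4.17% for iP+A-only sites.

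The pattern share was higher at stronger than at the weakest shared and iGPA-only sites, and lower at the strongest iP+A-only sites. For iGPA-only sites it was 40.7% below a −log10 p of 6 and 59.3% from 10 to 15, and for iP+A-only sites it was 22.0% and 19.6%. At 20 or more it was 53.5% of 566 iGPA-only sites and 10.4% of 77 iP+A-only sites. The promoter share of iGPA-only sites went from 24.8% to 3.00% over the same range. Among single-copy sites over 1 kb from a start, the pattern share of shared sites was 67.8% below 6 and 65.2% at 20 or more. There it went from 56.9% to 60.9% at iGPA-only sites, and at iP+A-only sites from 42.0% to 49.3% at 8 to 10 and to 3 of 14 sites at 20 or more.

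**Figure D4:**
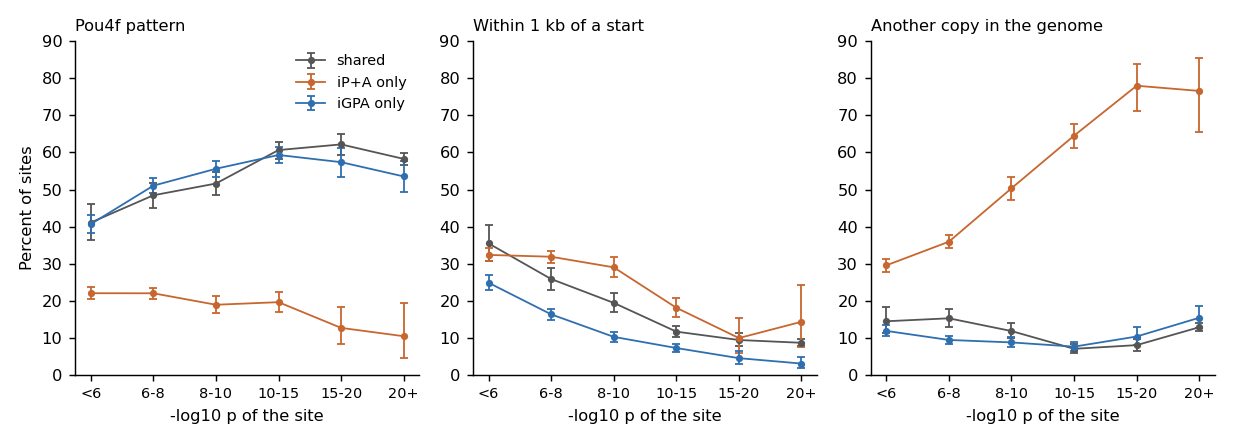
Percent of sites (vertical axes) with the Pou4f pattern, within 1 kb of a start and with another copy in the genome, by −log10 p of the site (horizontal axes), for the 3 classes with 95% Clopper-Pearson intervals. Shared sites are placed by their iGPA value. In iP+A-only sites the share with a copy goes from 29.5% to 76.6%.

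Several of the strongest sites had no Pou4f pattern and shared the letters ATTATTNAT, seen in the sequences above. This pattern was chosen after those sequences were read, so its counts are a description. It was found in 52 of the 100 shared sites of highest fold, 53 of the 100 iGPA-only sites and 3 of the 100 iP+A-only sites. Over whole classes it was found in 44.1%, 34.7% and 10.0%, and in 2.41% of the genome windows. Some of its forms match the Pou4f pattern. Among sites without the Pou4f pattern it was found in 25.5%, 13.6% and 2.13%.

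E-boxes of the forms CAGCTG and CAGATG (or its complement CATCTG) were in 31.8% of the shared, 30.8% of the iGPA-only and 24.8% of the iP+A-only sites, against 29.4% of all joined sites and 25.8% of the genome windows. The difference was 6.02 points (4.70 to 7.34), and 2.12 points (0.0512 to 4.16) among single-copy sites over 1 kb from a start. Between shared and iGPA-only sites the interval of the difference, −0.352 to 2.31 points, included 0. The Gfi1 pattern (AATCACAGC or AATCACTGC) was in 0.639%, 0.508% and 0.581% of the shared, iGPA-only and iP+A-only sites, against 0.574% of all joined sites and 0.560% of the genome windows. The difference between iGPA-only and iP+A-only was −0.0724 points (−0.302 to 0.146), and −0.485 points (−0.965 to −0.114) among single-copy sites over 1 kb from a start.

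iGPA Gfi1 peaks were most frequent at shared sites and not at iGPA-only sites. A Gfi1 peak was at 497 shared sites (5.47%, 5.01% to 5.96%), 255 iP+A-only sites (3.22%, 2.84% to 3.63%) and 221 iGPA-only sites (2.29%, 2.00% to 2.61%), against 3.65% of all joined sites. The shared sites exceeded the iGPA-only sites by 3.18 points (2.63 to 3.74), on 20 of 20 chromosomes. The difference between iGPA-only and iP+A-only sites was −0.926 points (−1.42 to −0.441), with the same sign on 16 of 20 chromosomes. This difference varied between kinds of site. It was −0.513 points (−1.18 to 0.0592) among single-copy sites over 1 kb from a start, 1.48 points (−0.0335 to 3.14) among single-copy sites within 1 kb of a start and 0.117 points (−1.12 to 1.64) among sites with a copy, and each interval includes 0. With a −log10 p of at least 10 in both lists it was −4.81 points (−6.27 to −3.53). The Gfi1 list comes from 1 library and holds 3012 peaks.

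Gfi1 peaks sat mostly where Atoh1 was also found in iGPA. Of the sites with a Gfi1 peak, 73.0% of the shared, 62.4% of the iGPA-only and 51.8% of the iP+A-only sites had an iGPA Atoh1 peak. It was at 65.1% of all 973 sites with a Gfi1 peak, against 21.6% of all joined sites. Where an iGPA Atoh1 peak was present, a Gfi1 peak was found at 15.6% of the shared, 8.36% of the iGPA-only and 7.44% of the iP+A-only sites, and where it was absent at 1.99%, 1.04% and 2.00%. Over all joined sites these shares were 11.0% with an iGPA Atoh1 peak and 1.63% without. The series holds 2 input libraries of iGPA for its Atoh1, Pou4f3 and Gfi1 lists, so these lists are not independent in input. Which of the 2 the Gfi1 list used is not stated in the sources used here. The Gfi1 summit lay within 50 bp of the Pou4f3 summit at 60.2%, 51.1% and 40.8% of these sites. The Gfi1 pattern was in 22 of the 973 sites with a Gfi1 peak (2.26%), against 0.574% of all joined sites. E-boxes were in 49.3% of the shared, 48.0% of the iGPA-only and 28.2% of the iP+A-only sites with a Gfi1 peak. They were in 43.5% of all 973, against 29.4% of all joined sites. The Pou4f pattern was in 42.3% of the shared ones, 42 of the 221 iGPA-only ones and 9.41% of the iP+A-only ones. It was in 28.4% of all 973, against 44.6% of all joined sites.

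Among the iGPA-only sites with a Gfi1 peak, the highest Pou4f3 fold was 14.3, at chr6:95262784-95263083, where the Gfi1 fold was 4.62 and the summits lay 23 bp apart. The next, between genes at −56998 bp from the start of Hpcal1, a neuronal calcium sensor, had a Pou4f3 fold of 10.6 and a Gfi1 fold of 6.56, with the summits 5 bp apart. Both also had an iGPA Atoh1 peak and an iG+P Pou4f3 peak. Among shared sites, the intron of Megf11, a cell surface receptor, had Pou4f3 folds of 19.02 and 47.5 and a Gfi1 fold of 8.14.

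The difference in Atoh1 peaks between iGPA-only and iP+A-only sites was larger for the iP+A than for the iGPA Atoh1 list. An iP+A Atoh1 peak was at 29.9% of the iP+A-only sites, 11.2% of the iGPA-only sites and 22.2% of the shared sites, against 20.5% of all joined sites. The difference was −18.7 points (−19.9 to −17.5), with the same sign on 20 of 20 chromosomes. An iGPA Atoh1 peak was at 22.4% of the iP+A-only, 17.1% of the iGPA-only and 25.7% of the shared sites, against 21.6% of all joined sites. This difference was −5.28 points (−6.47 to −4.09), with the same sign on 18 of 20 chromosomes. Among single-copy sites over 1 kb from a start the iP+A Atoh1 difference was −9.90 points (−11.5 to −8.34) and the iGPA Atoh1 difference was 0.0788 points (−1.49 to 1.57). The series holds 2 input libraries of iP+A for its Atoh1 and Pou4f3 lists, so these lists too are not independent in input.

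iP+A-only sites also had peaks in Atoh1 lists of lines without any Pou4f3 cassette. An iAtoh1 Atoh1 peak was at 22.3% of the iP+A-only, 5.15% of the iGPA-only and 5.78% of the shared sites, against 10.5% of all joined sites. An iG+A Atoh1 peak was at 21.8%, 6.63% and 6.93%, against 11.2%. Among iP+A-only sites with a copy, 39.9% had an iAtoh1 Atoh1 peak, and among single-copy ones 10.5%. No Pou4f3 was tagged in those lines, and the part of copy number in the overlap was not tested.

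The other pair of Pou4f3 lists that differ by Gfi1 was iPou4f3, with 22433 peaks, and iG+P, with 32632. An iG+P peak was at 87.3% of the shared, 56.4% of the iGPA-only and 40.7% of the iP+A-only sites, against 62.3% of all joined sites. An iPou4f3 peak was at 81.4%, 37.4% and 30.6%, against 50.4%. The excess of iG+P over iPou4f3 was 19.01 points (17.9 to 20.1) at iGPA-only sites, 10.0 points (8.71 to 11.4) at iP+A-only sites and 5.92 points (5.11 to 6.73) at shared sites. It was larger at iGPA-only than at iP+A-only sites by 8.97 points (7.24 to 10.7). With a −log10 p of at least 10 in both lists the sign turned, to −4.85 points (−8.08 to −1.63). In the uncut classes, 64.5% of the iP+A-only sites with a −log10 p of 10 to 15 had a copy. At single-copy sites over 1 kb from a start in that range, iG+P and iPou4f3 peaks were at 68.3% and 42.1% of the iGPA-only sites. At the iP+A-only sites there the 2 values were 57.1% and 55.1%. The part of copies in the turn was not tested.

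The excess differed between sites with and without copies. At single-copy iP+A-only sites it was −3.82 points (−5.53 to −2.11) and at iP+A-only sites with a copy it was 30.7 points (28.8 to 32.6). At iGPA-only sites the 2 values were 18.8 and 20.7 points. Among single-copy sites over 1 kb from a start it was 21.8 points (20.5 to 23.0) at iGPA-only and 2.03 points (−0.158 to 4.23) at iP+A-only sites, a difference of 19.7 points (17.2 to 22.2). Among single-copy sites within 1 kb of a start it was 0.253 points (−3.28 to 3.78) at iGPA-only and −11.3 points (−13.9 to −8.62) at iP+A-only sites. Sites present in both lines with Gfi1 and in neither line without it numbered 2590, or 26.9% of the iGPA-only sites. The Pou4f pattern was in 59.4% of them and a Gfi1 peak at 1.81%. An iG+P peak without an iPou4f3 peak was also at 1883 iP+A-only sites (23.8%) and 992 shared sites (10.9%). Sites present in both lines without Gfi1 and in neither line with it numbered 1088, or 13.7% of the iP+A-only sites. Of these, 49.9% were at a promoter and 21.7% held the Pou4f pattern. An iPou4f3 peak without an iG+P peak was also at 758 iGPA-only sites (7.87%) and 454 shared sites (5.00%).

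**Figure D5:**
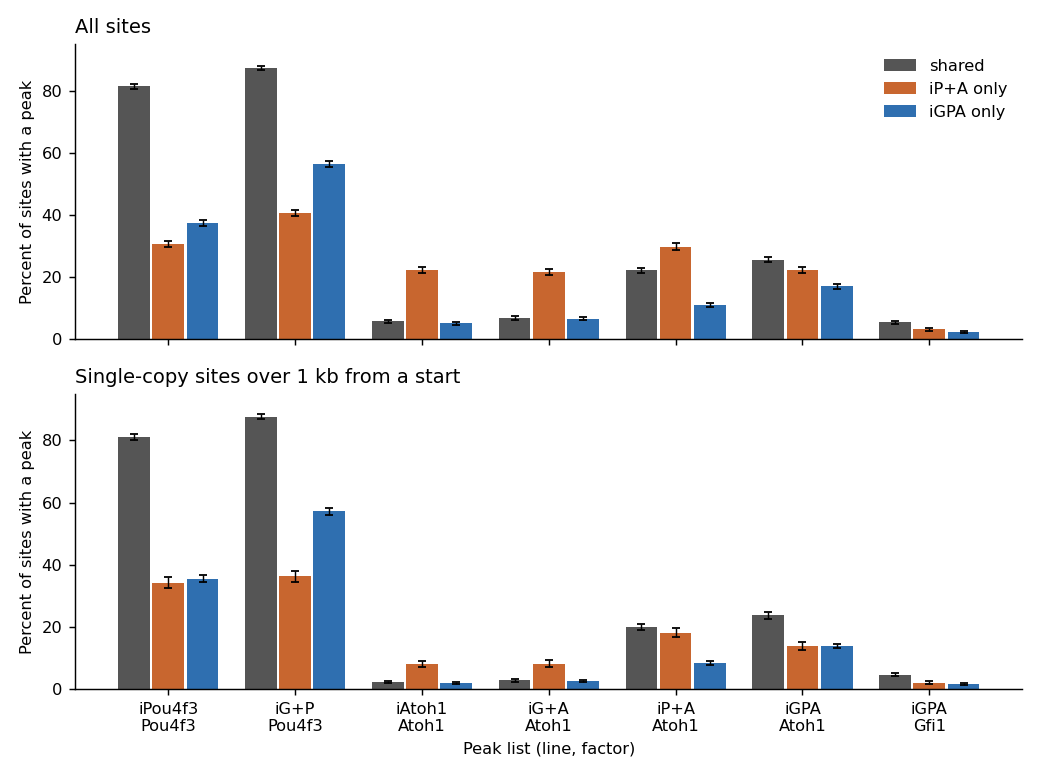
Percent of shared, iP+A-only and iGPA-only Pou4f3 sites with a peak in each of 7 other lists (vertical axes), for all sites (top) and for single-copy sites over 1 kb from a start (bottom). Error bars are 95% Clopper-Pearson intervals. In the lower panel the iG+P bars stand at 57.3% for iGPA-only and 36.3% for iP+A-only sites.

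Each site was given to the gene with the nearest start, leaving out genes that the annotation types as pseudogenes or small RNAs. A shared site was nearest to 5758 of 26528 genes (21.7%), an iGPA-only site to 6084 (22.9%) and an iP+A-only site to 4568 (17.2%). Genes with iGPA-only and iP+A-only sites numbered 2037, which is 44.6% of the genes with an iP+A-only site and 33.5% of those with an iGPA-only site.

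The genes with the most iGPA-only sites and no iP+A-only site were Cdh9, a cadherin, with 12, the formin family gene Diap3 with 12, the blood transcription factor Runx1 with 8, the cell polarity gene Pard3 with 7 and the lipid kinase Pik3c3 with 7. Of these 5, 4 had no site with a copy. Their sites reached far from the starts. The farthest lay 1239712 bp away at Cdh9, 1239312 bp at Diap3 and 2140508 bp at Pik3c3. At Runx1 and Pard3 it lay 276435 and 219312 bp away. Those with the most iP+A-only sites and no iGPA-only site were Gm16387 with 42, C230091D08Rik with 15, Gm3476 with 15, Vmn2r-ps100 with 14 and Ighv8-12 with 14. Of the 44 sites at Gm16387, 40 had a copy, and every site at C230091D08Rik, Gm3476 and Vmn2r-ps100 had one. The most shared sites were at Prl2c3, a prolactin family gene, with 17, where 105 of 106 sites had a copy. The adhesion gene Cadm1 had 15, Odz3 had 11 and Auts2 had 10, and none of these had a site with a copy.

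In each of 7 gene lists, pluripotency included, the share of genes with a site was above that of all genes in all 3 classes, and no correction was made for the sequence around a gene. Of 44 genes of hair cell structure and function, 20 (45.5%) had a shared, 21 (47.7%) an iGPA-only and 11 an iP+A-only site. Grxcr1, which acts in stereocilia, had 2 sites of each class and folds of 3.17 and 12.1 at the strongest shared site, 36536 bp from its start. Of 24 hair cell regulators, 13 had a shared, 10 an iGPA-only and 8 an iP+A-only site. Eya1, a cofactor of otic development, had 4 shared and 6 iGPA-only sites and no iP+A-only site. The strongest, between genes at −38477 bp from its start, had folds of 10.3 and 22.7.

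Of 34 sensory neuron genes, 17 had a shared, 16 an iGPA-only and 8 an iP+A-only site. The neurotrophin receptor gene Ntrk3 had a shared site in an intron, at −94110 bp from the nearest start, with folds of 13.2 and 34.7. The proneural gene Neurog1 had a shared site at −152 bp from its start with 13.5 and 20.8. Of 36 general neuronal genes, 19 had a shared, 17 an iGPA-only and 15 an iP+A-only site. The strongest was at Nhlh1, a neuronal helix-loop-helix factor, at −235 bp from its start, with 13.9 and 34.8. Elavl4, an RNA-binding protein of neurons, had 7 shared sites.

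Of 44 axon guidance genes, 28 (63.6%) had a shared, 27 (61.4%) an iGPA-only and 23 (52.3%) an iP+A-only site. A shared site between genes, at −669831 bp from the start of Epha7, had folds of 8.72 and 26.9. One in an intron, at 12479 bp from a start of Plxna2, had 5.55 and 18.9. Of 32 genes of blood cells and known Gfi1 partners, 11 had a shared, 15 an iGPA-only and 12 an iP+A-only site. Kit, a receptor of blood stem cells, had 3 shared, 3 iGPA-only and 1 iP+A-only site. Of 22 pluripotency genes, 8 had a shared, 8 an iGPA-only and 5 an iP+A-only site. Zfp42 was the nearest start, at −99596 bp, of a shared site between genes with 5.32 and 20.2.

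The 3 genes of the cassettes had sites of all classes or nearly so. At Pou4f3 itself there were 5 shared sites, 1 iGPA-only and 1 iP+A-only site. The strongest shared site lay at −1291 bp from its start, with folds of 8.38 and 18.2. The iP+A-only site, with a fold of 6.79, and the iGPA-only site, with 3.74, both lay in the coding exons. At Atoh1, a shared site in the coding exon had a fold of 6.68 in iP+A and 3.32 in iGPA, with peaks in all 4 Atoh1 lists and in neither iPou4f3 nor iG+P. At Gfi1 there were 2 shared sites, with 4.19 and 3.04 at the stronger in iP+A, and 1 iP+A-only site with 3.51. Within coding exons, fragments of the cassette and of the endogenous gene cannot be told apart.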

How the data were processed

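The data were ChIP-seq peak lists of merged replicates. Per the study's methods and the submitters' processing notes, the authors trimmed adapters (Trimmomatic), aligned reads to mm9 with Bowtie2, removed duplicates (Picard), reads of low mapping quality (SAMtools) and blacklisted regions (bedtools), and called peaks with MACS2 on merged ChIP against merged input replicates. Versions are not given in the sources used here. The authors' fold enrichment (a ratio) and −log10 p are those deposited from the peak caller. The deposited score was not used, nor was the deposited signal of the summit lists, which has no stated definition. The authors left 31.5% of the called iP+A peaks and 14.1% of the called iGPA peaks out of the summit lists. Their rule for this is not given in the sources used here.

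Read totals were not used here. The fragments at a summit and the background were recovered from the authors' fold and −log10 p with a tolerance of 0.001, for 99.9% of iP+A and 99.8% of iGPA peaks. The usual background was then 7.83 and 5.87 fragments, and the fewest fragments of a kept peak at that background were 20 and 17.

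Sites were joined and described with Python 3.11, NumPy 2.4.6, SciPy 1.17.1, pandas 2.3.3 and pysam 0.24.0, on the NCBIM37 genome (mm9) and its GENCODE annotation. The summit of a shared site was that of iGPA. Copies were found with minimap2 2.31. Tandem repeats were summits where at least 80% of the surrounding 100 bp equalled the base 1 unit on, for units of up to 12 bp. Shares have Clopper-Pearson intervals, differences of shares Newcombe intervals, and differences of means normal intervals. A difference was called when its interval excluded 0. The scripts were tested on simulated data.

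The sites, gene lists, patterns and tests were chosen with earlier results of these data known. Named sites were the 3 of highest fold in each class, the 3 of highest fold with the Pou4f pattern outside tandem repeats, and the 2 of highest Pou4f3 fold with a Gfi1 peak. Named genes were the 5 with the most sites of a class, the 2 of highest fold in each list and the cassette genes. Not all sites and genes that the rule selects are reported here. The alternatives are given at the end. The settings that leave out copies, promoters, chromosome 14 or neighbouring sites, and the one that shortens the iG+P list, were chosen after seeing the data.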

Additional observations from a re-analysis of the deposited data

Results flagged for a closer look

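Peaks that the authors called but left out of the summit lists were not used for the classes, and some lay at unshared sites. A removed iGPA peak was at 497 of the 7920 iP+A-only sites (6.28%, 5.75% to 6.83%). A removed iP+A peak was at 389 of the 9637 iGPA-only sites (4.04%, 3.65% to 4.45%). There is no control list to set these shares against. With all called peaks, 46.1% of the iP+A sites and 52.0% of the iGPA sites were shared.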

How the results depend on the processing

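The share of iP+A sites that were shared was 49.1% with windows of 100 bp, 58.5% with 1000 bp, 70.7% and 87.5% with a −log10 p of at least 10 and 20, 51.5% with lists of equal length and 46.1% with all called peaks. It was at most 55.6% with any chromosome left out, which was chromosome 14, 63.0% without sites with copies, 58.5% without sites within 1 kb of a start, 72.2% without either and 55.9% without unshared sites that had a peak of the other list within 1 kb. The share of iGPA sites was 44.7%, 50.9%, 37.1%, 26.4%, 51.3% and 52.0% under the first 6 of these, and 50.1% under the last. The −log10 p settings cut each list before joining, so a shared site with 1 peak below the cut became a site of 1 list. The Gfi1 difference between iGPA-only and iP+A-only sites was −0.239 points with windows of 100 bp and −0.513 without copies and starts, both with intervals that include 0, but −2.83 with 1000 bp and −4.81 and −14.1 with a −log10 p of at least 10 and 20. The iGPA Atoh1 difference turned to 0.490 and 0.0788 points with 100 bp and without copies and starts, and was −12.4, −18.1 and −21.0 under the other 3. The difference in the iG+P excess over iPou4f3 turned to −4.85 and −6.25 points with a −log10 p of at least 10 and 20, and was 8.25 points with the iG+P list cut to the length of the iPou4f3 list. The GC difference was −1.18 points with a −log10 p of at least 20 and −0.0111 without sites near starts, but −10.01 without sites with copies. The cause of these changes was not tested. The promoter, E-box, Pou4f pattern and iP+A Atoh1 differences and that of Gfi1 peaks between shared and iGPA-only sites kept their direction and their side of 0 under every setting run for them, the Pou4f pattern between 5.99 points with no mismatch and 35.1 points. The promoter difference has no value where sites near starts are left out. No paired analysis was possible because peaks were called on merged replicates, and for the same reason no replicate could be left out. The few iP+A-only sites at high −log10 p limit the strict settings, and the single Gfi1 library limits every Gfi1 share.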
